A study of Mus musculus with 30 samples.

Results

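The genes described here are the protein-coding Hox genes of the 4 mouse clusters, taken as every protein-coding gene of the tables whose name is Hox, a cluster letter from a to d and a number. This rule found 37 genes among the 20093 genes listed in at least 1 of the 14 tables. There were 11 in the Hoxa cluster on chromosome 6, 10 in the Hoxb cluster on chromosome 11, 7 in the Hoxc cluster on chromosome 15 and 9 in the Hoxd cluster on chromosome 2. The rule reads the name and biotype of a row and no measured value.

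Hox genes encode homeodomain transcription factors that assign position along the body axis. Within a cluster they lie in the order in which they are expressed, so that genes with a low paralogue number act anteriorly and genes with a high number posteriorly. In the gut, Hox genes are known for their expression in the mesenchyme around the endoderm, with the paralogues of the posterior end marking the hindgut, and Hoxa13 and Hoxd13 are needed for its most caudal part. Hox proteins bind DNA together with TALE homeodomain proteins of the Pbx and Meis families.

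RNA near the poly(A) tail was sequenced from cells of C57BL/6 mice with a Col6a1 Cre transgene (ColVI-cre) and the Rosa mTmG reporter, whose red membrane protein (Tomato) is replaced by GFP once Cre has acted in a cell or its ancestor. The colon of mice with colitis induced by dextran sulfate sodium (DSS), and of normal mice, gave GFP-positive, GFP-negative and unsorted cells. The small intestine of normal mice gave GFP-high, GFP-low, GFP-negative and unsorted cells. All groups carried both alleles, so GFP marks a history of activity of this collagen VI driver and not a defined cell type. The labels give 3 samples for each of the 10 groups and no animal, age or sex, so p-values measure the spread between these samples, which may be technical. In all, 29 of the 30 labelled libraries were analysed, since unsorted small intestine replicate 1 was not used here.

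Total normalised counts were 2137947 to 4437152 per library, and the reads behind them, where the value of 1 read could be resolved, were 1228000 to 4416000. Levels are given either as normalised counts on the scale of a table or as ppm (parts per 1000000) of the library total. Reads of this method come from the 3′ end, so a level does not scale with transcript length. The labels name no molecular identifiers, and amplification may differ between genes, so the order of genes by level is approximate. Whether libraries overlap is judged on the normalised counts of the table within a comparison, and on ppm between tissues. The defining mesenchymal markers were present in the sorted cells: the summed level of 10 fibroblast markers was 8723 to 29236 ppm in sorted and 2605 to 17094 ppm in unsorted libraries. The summed level of 16 epithelial markers was 28.5 to 355 ppm in sorted and 575 to 4917 ppm in unsorted libraries. In bulk samples, fewer cells of a type and less RNA per cell cannot be told apart.

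Of the 37 genes, 26 had rows in tables of both tissues and 17 had a row in all 14 tables. Another 10 had rows only in colon tables, namely Hoxa6, Hoxa13, Hoxb13, Hoxc11, Hoxd1, Hoxd3, Hoxd10, Hoxd11, Hoxd12 and Hoxd13, and Hoxc5 had rows only in small intestine tables. Hoxc12 and Hoxc13 were not analysed here. A gene without a row is not known to be at 0, so genes with rows in only 1 tissue were not compared between tissues. All 3 analysed Hox13 genes and both Hoxd10 and Hoxd11 had rows in the colon only, but so did the lower-numbered Hoxa6, Hoxd1 and Hoxd3. More genes were listed for colon libraries (17143 to 18407) than for those of the small intestine (16512 to 16563). The share of all genes with rows in colon tables only was not counted. The 37 spans and strands in the tables were those of GENCODE M21 (GRCm38, mm10). No exon of another gene lay on the same strand over the last 300 bases of any of them. An exon on the opposite strand lay there in 6, namely Hoxa3, Hoxa4, Hoxa7, Hoxb2, Hoxb3 and Hoxd3, and since use of strand in counting is not stated, reads of these genes and their antisense partners cannot be told apart.

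The promoters of 4 genes that the results below turn on are shown, from 250 bases before to 50 after the start, 5′ to 3′ (RefSeq, GRCm38.p6). Hoxa7 (chr6:52218524-52218823, minus strand) was higher and Hoxb4 (chr11:96318017-96318316, plus strand) and Hoxd13 (chr2:74667975-74668274, plus strand) were lower in GFP-positive than in GFP-negative colon cells. Hoxb8 (chr11:96281655-96281954, plus strand) was read mainly in unsorted cells of the small intestine. Capitals mark matches on either strand to TGATNNAT, a sequence bound by Pbx and Hox proteins together, and to TTTATG, a caudal (CDX) sequence.
Hoxa7: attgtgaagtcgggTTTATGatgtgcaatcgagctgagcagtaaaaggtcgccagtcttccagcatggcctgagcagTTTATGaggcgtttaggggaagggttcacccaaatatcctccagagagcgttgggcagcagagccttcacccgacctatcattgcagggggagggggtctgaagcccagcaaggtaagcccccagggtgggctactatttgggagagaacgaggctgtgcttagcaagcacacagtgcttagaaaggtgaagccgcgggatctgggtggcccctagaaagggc
Hoxb4: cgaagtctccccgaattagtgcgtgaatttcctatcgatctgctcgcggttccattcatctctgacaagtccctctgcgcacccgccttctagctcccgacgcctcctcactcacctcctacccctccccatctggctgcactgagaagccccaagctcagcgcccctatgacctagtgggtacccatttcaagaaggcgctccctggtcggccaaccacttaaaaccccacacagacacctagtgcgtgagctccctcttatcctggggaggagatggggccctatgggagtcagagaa
Hoxd13: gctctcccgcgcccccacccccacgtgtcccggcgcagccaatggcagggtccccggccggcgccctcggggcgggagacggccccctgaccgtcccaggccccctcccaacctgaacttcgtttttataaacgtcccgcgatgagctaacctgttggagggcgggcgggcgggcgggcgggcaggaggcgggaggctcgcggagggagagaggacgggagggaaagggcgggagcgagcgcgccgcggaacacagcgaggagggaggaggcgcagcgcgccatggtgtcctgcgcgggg
Hoxb8: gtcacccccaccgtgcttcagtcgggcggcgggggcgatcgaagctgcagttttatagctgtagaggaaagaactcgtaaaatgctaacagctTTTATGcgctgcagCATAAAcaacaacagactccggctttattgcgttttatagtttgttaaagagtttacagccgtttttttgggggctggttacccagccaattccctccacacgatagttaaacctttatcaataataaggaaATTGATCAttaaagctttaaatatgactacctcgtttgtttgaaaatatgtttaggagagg
Hoxa7 and Hoxb8 each hold 2 matches to TTTATG and Hoxb8 also 1 to TGATNNAT, while the windows of Hoxb4 and Hoxd13 hold none. Among 22 Hox genes with a promoter in the RefSeq table, TTTATG occurred in 5 (Hoxa7, Hoxb8, Hoxd3, Hoxd4 and Hoxd11), against 12.1% of 27025 promoters of all genes. TGATNNAT occurred in 3 of the 22 (Hoxa2, Hoxb1 and Hoxb8), against 9.04% of all promoters, and a NF-kB sequence in 0, against 4.35%. The share of G and C bases was 74.3% in the Hoxd13 window and 42.3% in that of Hoxb8.

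**Figure D1:**
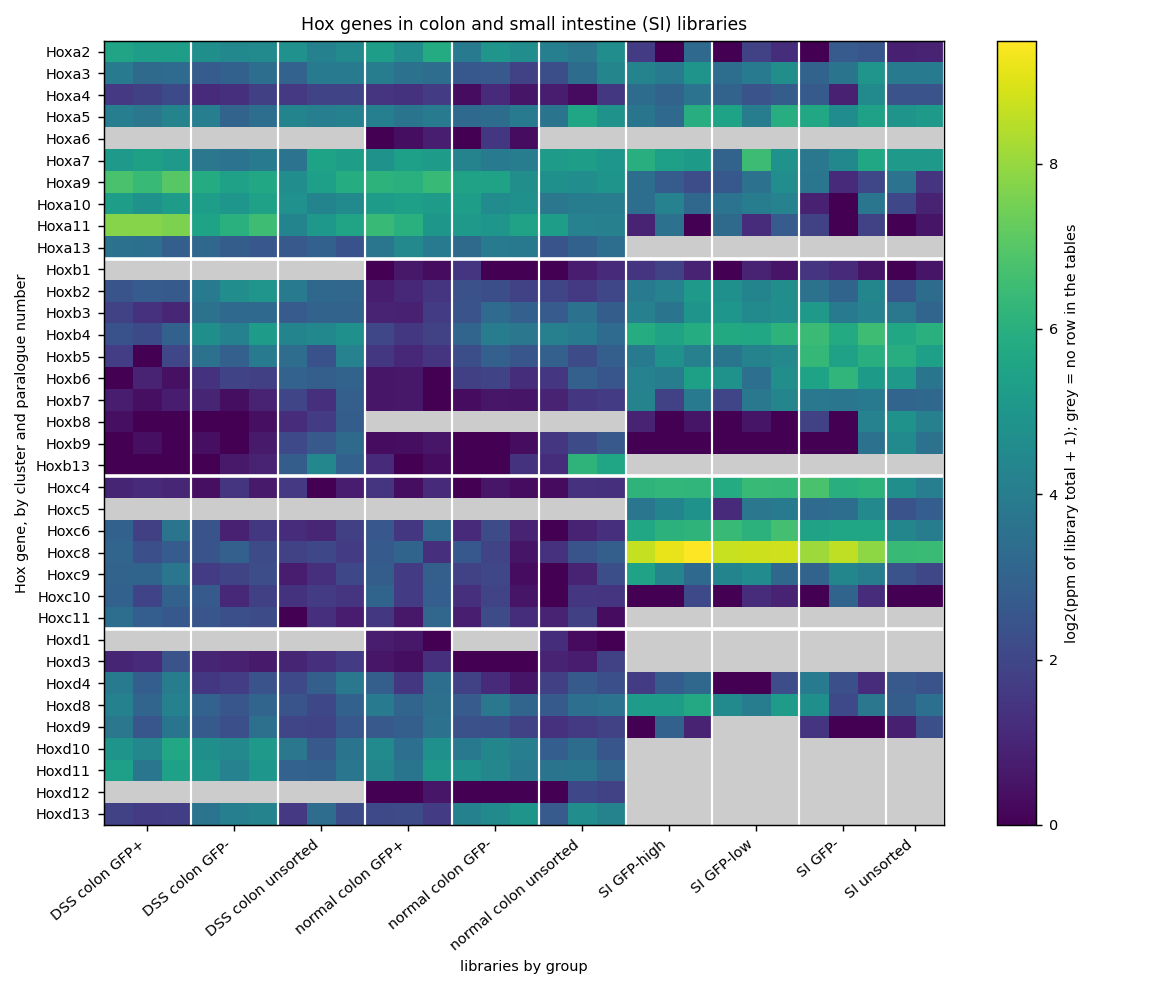
Level of the Hox genes, all but 1 of the 37 (rows, by cluster and paralogue number) in the 29 libraries (columns, by group), as log2(ppm of the library total + 1) on a colour scale, with grey where the group had no row. Hoxc8 is the brightest row in the small intestine, up to 717 ppm, and Hoxa9 and Hoxa11 are among the brightest in the sorted colon cells.

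Colon and small intestine cells differed in which Hox clusters gave most of the counts. In the colon most Hox counts came from the Hoxa cluster, with Hoxa9 and Hoxa11 highest in each sorted group, whereas in sorted cells of the small intestine most came from the Hoxc cluster, led by Hoxc8. These levels are shares of libraries that were normalised in separate tables, so the tissues are described without a test. Cell type markers differed too. Smooth muscle and pericyte markers summed to 962 to 1388 ppm in normal GFP-positive colon and 2714 to 4879 ppm in GFP-high small intestine cells. In GFP-negative cells they held 269 to 588 ppm in normal colon and 919 to 1677 ppm in small intestine. Fibroblast markers held 18793 to 25050 ppm in normal GFP-positive colon and 11374 to 15976 ppm in GFP-high cells, and overlapped in GFP-negative cells. The part of these shifts was not tested. In the labels the library numbers of small intestine follow directly on those of DSS colon, and those of normal colon stand apart. Normal colon and small intestine thus differ in library numbering as well as in tissue, and these cannot be told apart. DSS colon and small intestine adjoin in number but differ in treatment. The comparison over all libraries takes in both normal and DSS colon.

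Hoxc8, a gene of trunk-level identity in the mouse, averaged 4.75 ± 3.00 ppm in GFP-positive cells of the normal colon, against 563 ± 157 ppm in GFP-high cells of the small intestine (SD, n = 3 each). Its 18 colon libraries held 0.463 to 7.45 ppm with a median of 4.21 ppm, and the 11 small intestine libraries 83.7 to 717 ppm with a median of 403 ppm. The mean over small intestine libraries was 88.7 times that over colon libraries, and no library of one tissue reached the range of the other. Only 1.63% of genes had a higher mean share than Hoxc8 in GFP-high cells. Within the small intestine its levels were 403, 569 and 717 ppm in GFP-high, 409, 440 and 445 ppm in GFP-low, 274, 381 and 236 ppm in GFP-negative and 83.7 and 86.7 ppm in unsorted libraries.

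Hoxc4, an anterior gene of the same cluster, held 0 to 1.96 ppm in the colon libraries against 15.8 to 107 ppm in those of the small intestine. Hoxc6 held 0 to 11.4 ppm in colon against 15.3 to 99.7 ppm in small intestine libraries. The Hoxb genes Hoxb4 (1.91 to 36.7 ppm in colon against 43.4 to 91.0 ppm in small intestine) and Hoxb6 (0 to 7.02 ppm in colon against 9.99 to 75.1 ppm in small intestine) also did not overlap between the tissues. The opposite pattern was seen for Hoxa2, best known from the hindbrain and neural crest, with 12.4 to 56.1 ppm in colon against 0 to 8.42 ppm in small intestine libraries. Hoxa11, known for its part in limb and urogenital patterning, held 16.4 to 216 ppm in colon against 0 to 10.7 ppm in small intestine libraries. Hoxa2 has a low paralogue number, so the genes higher in colon were not only posterior ones.

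Over all 29 libraries, 7 of the 23 Hox genes that could be compared did not overlap between the tissues, against 3.19% of all genes compared. Of the 7, 2 were higher in every colon library (2.45% of all genes) and 5 were lower (0.739% of all genes). In the normal mice, GFP-positive colon cells and GFP-high small intestine cells did not overlap in 18 of 25 Hox genes, 5 higher and 13 lower in colon, against 38.3% of all genes (18.6% higher and 19.7% lower). GFP-negative cells of both tissues did not overlap in 17, 5 higher and 12 lower in colon, against 32.4% of all genes (17.1% higher and 15.3% lower). Unsorted cells did not overlap in 14, 4 higher and 10 lower in colon, against 45.5% of all genes (18% higher and 27.5% lower). Hoxa2, Hoxa9, Hoxa10 and Hoxa11 were higher in colon, and Hoxb2, Hoxb4 to Hoxb7, Hoxc4, Hoxc6 and Hoxc8 lower, in each of these 3 pairs.

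The Hoxa cluster made up 68.0% to 83.0% of Hox counts in the GFP-positive colon libraries and 53.6% to 61.9% in the GFP-negative ones, but 7.93% to 20.3% in the sorted small intestine libraries. The Hoxc cluster made up 1.38% to 7.55% in the sorted colon and 46.2% to 73.2% in the sorted small intestine. Hoxd genes made up 10.2% to 26.1% in the sorted colon and 0.904% to 4.84% in the sorted small intestine. Part of this rests on genes with rows only in colon tables. Over the 26 Hox genes with rows in both tissues, a choice made after seeing the data, Hoxd genes made up 3.89% to 9.34% in the sorted colon and 0.915% to 4.90% in the sorted small intestine, and these ranges overlapped. On the same genes the Hoxa cluster made up 65.6% to 89.9% in the sorted colon and 8.03% to 20.8% in the sorted small intestine, and the Hoxc cluster 1.2% to 7.18% and 44.8% to 72.8%. In unsorted small intestine cells the Hoxb cluster was largest, with 46.7% and 41.9%. Summed over the clusters, Hox genes held 228 to 673 ppm in colon libraries and 403 to 1310 ppm in those of the small intestine.

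**Figure D2:**
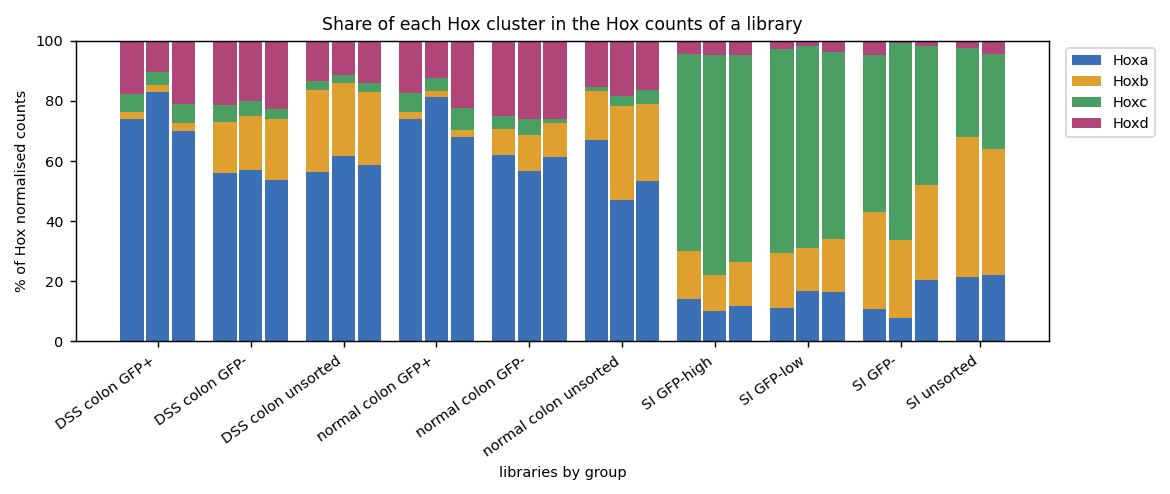
Share of the Hoxa, Hoxb, Hoxc and Hoxd clusters in the Hox normalised counts of each library, in percent (1 bar per library, by group, summing to 100). Hoxa forms the largest part of every colon bar and Hoxc the largest part of every sorted small intestine bar (46.2% to 73.2%).

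By paralogue number, genes 9 to 13 held 44.3% to 73.9% of the Hox counts of colon libraries and 1.86% to 8.92% of those of the small intestine. Over the 26 genes with rows in both tissues they held 27.4% to 71.3% in colon and 1.897% to 9.004% in small intestine libraries. The mean paralogue number of the Hox counts was 8.26 ± 0.36 in GFP-positive cells of the normal colon and 6.80 ± 0.14 in GFP-high cells of the small intestine (SD, n = 3 each), a difference of 1.46. It was 8.47 ± 0.30 in GFP-negative colon cells and 6.17 ± 0.33 in GFP-negative small intestine cells, a difference of 2.31 (SD, n = 3 each). Unsorted cells had 8.07 ± 0.48 in colon (SD, n = 3) and 5.98 ± 0.09 in small intestine (SD, n = 2), a difference of 2.08. These differences rest on which genes had rows. Over the 26 Hox genes with rows in both tissues they were 0.85, 1.14 and 0.61 in the same order, and over the 17 genes in all 14 tables the first was -0.24, the second 0.12 and the third 0.15.

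**Figure D3:**
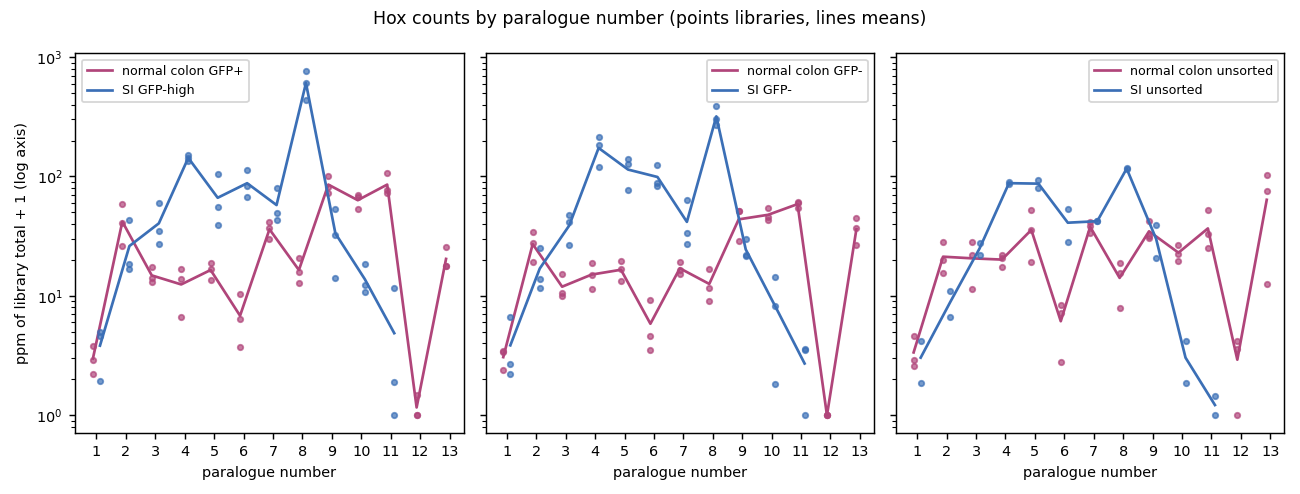
Sum of Hox levels by paralogue number in normal colon and small intestine for GFP-positive and GFP-high, GFP-negative and unsorted cells (3 panels, x axis paralogue number, y axis ppm of the library total + 1 on a log axis, points libraries, lines group means). Small intestine levels peak at paralogue number 8 (mean 605 ppm in GFP-high cells), with no rows for 12 and 13, and colon levels extend to 13.

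The Hox13 paralogues had rows only in colon tables and differed in which cells held them. Hoxa13 had 33, 33 and 19 normalised counts in GFP-positive and 26, 21 and 16 in GFP-negative cells of the DSS colon, and 52, 77 and 59 in GFP-positive and 36, 59 and 57 in GFP-negative cells of the normal colon. The fractions overlapped in both conditions (adjusted p = 0.457 in DSS and 0.696 in normal mice, limma). Hoxd13 was lower in GFP-positive than in GFP-negative colon cells and Hoxb13 lower in sorted than in unsorted ones, as described below. The Hoxd genes Hoxd10 and Hoxd11, next to Hoxd13 in the cluster apart from Hoxd12, had log2 fold changes between the sorted fractions of -0.09 to 0.16.

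GFP-positive and GFP-negative cells of the colon differed in single genes of all 4 clusters. Hoxd13 and the anterior Hoxb genes Hoxb3 and Hoxb4 were lower in GFP-positive than in GFP-negative cells in both DSS and normal mice, and Hoxa7 was higher. In the DSS colon, of 23 tested Hox genes 6 were higher and 5 were lower (limma, adjusted p below 0.05 over all genes), against 17.1% of all genes called (8.22% higher and 8.9% lower). In normal mice 1 was higher and 3 were lower, against 5.98% of all genes (2.97% higher and 3.01% lower). The median log2 fold change of the tested Hox genes was 0.47 in DSS and 0.34 in normal mice, beside 0.0106 and 0.0035 for all genes tested.

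Hoxd13, the last gene of its cluster, had 8, 7 and 7 normalised counts in GFP-positive and 35, 57 and 58 in GFP-negative cells of the DSS colon. The log2 fold change was -2.58 ± 0.33 (SE, adjusted p = 5.87e-05). Normal mice had 14, 13 and 9 counts in GFP-positive and 69, 91 and 127 in GFP-negative cells (log2 fold change -2.87 ± 0.35, SE, adjusted p = 0.000805). Every GFP-positive library lay below every GFP-negative one in both conditions, and no library decided the call when left out. Hoxd10 and Hoxd11 gave log2 fold changes of 0.16 ± 0.27 and 0.06 ± 0.39 (SE) in DSS and 0.09 ± 0.39 and -0.09 ± 0.39 (SE) in normal mice, with adjusted p from 0.745 to 0.951.

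Hoxb4, a gene of anterior trunk identity, had 13, 11 and 20 normalised counts in GFP-positive and 80, 60 and 117 in GFP-negative cells of the DSS colon (log2 fold change -2.46 ± 0.31, SE, adjusted p = 5.78e-05). In normal mice it had 13, 7 and 11 counts in GFP-positive and 31, 63 and 55 in GFP-negative cells (log2 fold change -2.14 ± 0.41, SE, adjusted p = 0.0111). Its neighbour Hoxb3 had 8, 5 and 3 counts in GFP-positive and 33, 30 and 27 in GFP-negative cells of the DSS colon (-2.36 ± 0.41, SE, adjusted p = 0.00087). The 2 fractions did not overlap for Hoxb4 in either condition or for Hoxb3 in DSS mice. For normal mice Hoxb3 had 4, 3 and 9 counts in GFP-positive and 18, 38 and 28 in GFP-negative cells, again without overlap (-2.25 ± 0.53, SE, adjusted p = 0.0291). There the Hoxb4 call was lost without GFP-negative replicate 2 (adjusted p = 0.07), and that of Hoxb3 without GFP-negative replicate 2 or 3 (0.159 and 0.0896) or GFP-positive replicate 1 or 2 (0.0947 and 0.0908).

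Other Hoxb genes lay on the same side. Hoxb2, a gene of hindbrain identity, had 14, 19 and 16 normalised counts in GFP-positive and 44, 85 and 95 in GFP-negative cells of the DSS colon (log2 fold change -2.06 ± 0.31, SE, adjusted p = 0.000281). Hoxb2 in the normal colon had 3, 4 and 7 against 17, 16 and 11 counts, with no overlap but an adjusted p of 0.158. Hoxb5 had 7, 0 and 9 counts in GFP-positive and 34, 23 and 45 in GFP-negative cells of the DSS colon (-2.97 ± 0.75, SE, adjusted p = 0.0198). This call was lost without DSS GFP-negative replicate 1 or 3 (adjusted p = 0.0557 and 0.0515). Hoxb5 in the normal colon gave 8, 4 and 7 counts in GFP-positive against 16, 27 and 21 in GFP-negative cells (adjusted p = 0.0818). The Hoxb cluster as a whole held 2.00% to 2.55% of Hox counts in the GFP-positive colon libraries and 8.87% to 20.3% in the GFP-negative ones.

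Hoxa genes lay on the other side. Hoxa7, a trunk-level gene, had 105, 133 and 100 normalised counts in GFP-positive and 40, 40 and 43 in GFP-negative cells of the DSS colon (log2 fold change 1.43 ± 0.21, SE, adjusted p = 0.000257). In normal mice it had 120, 146 and 148 counts in GFP-positive against 74, 58 and 65 in GFP-negative cells (1.06 ± 0.25, SE, adjusted p = 0.0308). The groups did not overlap in either condition. The normal colon Hoxa7 call was lost in 5 of 6 fits with 1 library left out, without GFP-negative replicate 2 or 3 (adjusted p = 0.136 and 0.079) or GFP-positive replicate 1, 2 or 3 (0.0724, 0.104 and 0.135). The antisense gene Hoxaas3, whose exon lies over the end of Hoxa7, moved with it, with log2 fold changes of 1.38 ± 0.24 (SE, adjusted p = 0.000774) in DSS and 1.06 ± 0.26 (SE, adjusted p = 0.0394) in normal mice, and its part in the Hoxa7 result was not tested.

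Hoxa11 had 668, 703 and 580 normalised counts in GFP-positive and 138, 225 and 296 in GFP-negative cells of the DSS colon (log2 fold change 1.62 ± 0.24, SE, adjusted p = 0.000207). In the normal colon its 359, 233 and 129 counts in GFP-positive cells overlapped the 136, 125 and 188 of GFP-negative cells (0.58 ± 0.36, SE, adjusted p = 0.474). Hoxa9 had 331, 273 and 388 counts in GFP-positive and 175, 149 and 161 in GFP-negative cells of the DSS colon (1.02 ± 0.19, SE, adjusted p = 0.00132). Hoxa9 in the normal colon had 295, 234 and 335 counts in GFP-positive against 177, 183 and 106 in GFP-negative cells, without overlap and with an adjusted p of 0.101. That Hoxa11 and Hoxa9 passed the threshold in DSS mice only does not show that the sorted fractions differ more there, and the difference of the DSS responses was not past the threshold for either gene, as given below.

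The remaining calls of the DSS colon were Hoxa2, Hoxc9 and Hoxd4, all higher in GFP-positive cells. Hoxa2 had 141, 126 and 115 normalised counts in GFP-positive and 79, 72 and 69 in GFP-negative cells (log2 fold change 0.79 ± 0.19, SE, adjusted p = 0.0118), and its call was lost without GFP-positive replicate 1 (adjusted p = 0.068). Hoxc9 had 22, 24 and 36 against 7, 10 and 12 counts (1.41 ± 0.36, SE, adjusted p = 0.0152), and its call was lost without GFP-positive replicate 3 (adjusted p = 0.0953). Hoxd4 had 45, 20 and 44 against 6, 8 and 14 counts (1.84 ± 0.41, SE, adjusted p = 0.00562), and its call held whichever library was left out. None of these 3 genes overlapped between the DSS fractions. Hoxa10, among the most abundant Hox genes of the GFP-negative cells, had 121, 92 and 106 counts in GFP-positive against 120, 107 and 134 in GFP-negative cells of the DSS colon (adjusted p = 0.59), and 156, 148 and 148 against 157, 96 and 112 in the normal colon (adjusted p = 0.587).

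**Figure D4:**
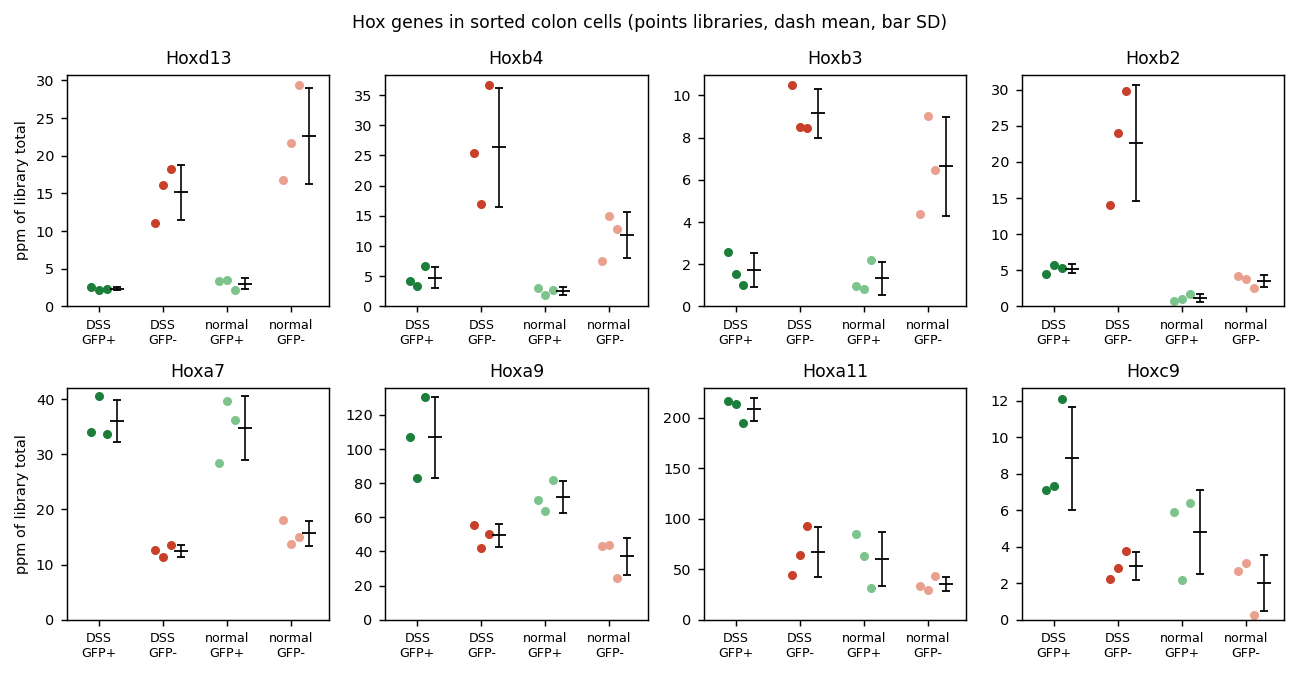
Levels of 8 Hox genes in GFP-positive and GFP-negative cells of the DSS and the normal colon, in ppm of the library total (points libraries, n = 3 per group, dash mean, bar SD, each panel from 0). Hoxd13, Hoxb4 and Hoxb3 are lower and Hoxa7 is higher in every GFP-positive library than in every GFP-negative library of the same condition.

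Markers of cell types also differed between these fractions, where 17.1% of all genes were called in DSS and 5.98% in normal mice. In the DSS colon, 7 of 11 smooth muscle and pericyte markers were higher and 1 was lower in GFP-positive cells, and in normal mice 3 were higher and 0 lower. Their summed level was 1054 to 1245 ppm in GFP-positive and 432 to 666 ppm in GFP-negative DSS libraries, and 962 to 1388 ppm in GFP-positive and 269 to 588 ppm in GFP-negative normal libraries. Of 10 fibroblast markers, 1 was higher and 7 were lower in GFP-positive DSS colon cells, and 1 was higher and 3 were lower in those of the normal colon. Pdgfra, a receptor of fibroblasts and telocytes, was the higher one, with log2 fold changes of 1.51 ± 0.18 in DSS and 1.46 ± 0.25 (SE) in normal mice. Of 10 tested immune markers 3 were lower in GFP-positive DSS cells and of 7 tested 3 in normal mice, and their sum was 81.0 to 196 ppm in GFP-positive and 188 to 351 ppm in GFP-negative DSS libraries, and 54.9 to 148 ppm in GFP-positive and 280.2 to 1106 ppm in GFP-negative normal libraries. Epithelial markers summed to 56.6 to 66.7 ppm in GFP-positive and 87.1 to 249 ppm in GFP-negative DSS libraries, where 5 of 9 were lower, and to 34.8 to 144 ppm and 28.5 to 128 ppm in normal libraries, where 0 of 9 passed, also at an unadjusted p below 0.05. Of 3 tested markers of interstitial cells of Cajal, 1 was higher and 1 lower in GFP-positive DSS cells and 2 were higher and 1 lower in those of normal mice, with sums of 39.3 to 51.4 ppm in GFP-positive and 17.8 to 43.9 ppm in GFP-negative DSS libraries, and 105 to 163 ppm in GFP-positive and 29.5 to 37.1 ppm in GFP-negative normal libraries. Both tested mesothelial markers were lower in GFP-positive DSS cells, with sums of 2.44 to 4.03 ppm against 12.4 to 18.2 ppm in GFP-negative ones. In normal libraries the mesothelial sums overlapped, with 1.36 to 5.68 ppm in GFP-positive and 0.244 to 9.03 ppm in GFP-negative ones. The epithelial and mesothelial lists share Krt19. Of 5 tested endothelial markers 1 was higher and 2 lower in DSS mice, and of 8 tested 2 were lower in normal mice. The part of these marker shifts in the Hox differences was not tested.

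Of the genes that act with Hox proteins, the TALE cofactors were lower in GFP-positive colon cells or did not pass the test. Of 8 tested, 4 fell in the DSS colon (8.9% of all genes) and 2 in the normal colon (3.01% of all genes), and 0 rose. Meis2 fell by 1.57 ± 0.16 (SE, adjusted p = 9.85e-06) in DSS and by 1.49 ± 0.29 (SE, adjusted p = 0.0124) in normal mice on the log2 scale. Pbx3 fell by 1.28 ± 0.26 (SE, adjusted p = 0.00305) in DSS and by 1.05 ± 0.24 (SE, adjusted p = 0.025) in normal mice. Meis1 fell in the DSS colon, by 1.26 ± 0.21 (SE, adjusted p = 0.000739). The median log2 fold change of the 8 was -0.91 in DSS and -0.58 in normal mice.

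Polycomb and trithorax genes keep Hox clusters silent or active. Of these chromatin regulators, 4 of 26 rose and 1 fell in GFP-positive DSS colon cells, near the 17.1% of all genes called there. In the normal colon 0 of 27 passed, and 3 had an unadjusted limma p below 0.05, as did 2312 of all 13346 genes tested. Wdr5, a subunit of MLL methyltransferase complexes, had the largest change in DSS mice, with a log2 fold change of 0.79 ± 0.23 (SE, adjusted p = 0.0304). Of the regional transcription factors of gut mesenchyme, 6 of 22 tested rose and 7 fell in the DSS colon (8.22% and 8.9% of all genes), and 3 of 24 rose and 5 fell in the normal colon (2.97% and 3.01% of all genes). Foxl1, a factor of the mesenchyme under the epithelium, rose by 3.58 ± 0.23 (log2, SE, adjusted p = 9.56e-08) in DSS and 2.86 ± 0.26 (SE, adjusted p = 0.000228) in normal mice. Tbx3, a T-box factor, rose by 2.11 ± 0.26 (SE, adjusted p = 5.69e-05) in DSS and 2.89 ± 0.28 (SE, adjusted p = 0.000315) in normal mice. Osr1 and Hand2 fell, with log2 fold changes of -2.64 ± 0.29 and -3.65 ± 0.59 (SE) in DSS and -2.11 ± 0.31 and -2.31 ± 0.51 (SE) in normal mice.

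Retinoic acid regulates Hox genes, and 4 genes of its axis differed between the fractions in both conditions, out of 12 tested in DSS and 13 in normal mice. Of all genes, 17.1% were called in DSS and 5.98% in normal mice, and the share called in both was not counted. Aldh1a1 and Rdh10, enzymes of retinoic acid synthesis, had log2 fold changes of 2.28 ± 0.19 and 1.02 ± 0.18 (SE) in the DSS and 2.80 ± 0.24 and 1.40 ± 0.33 (SE) in the normal colon. Aldh1a3, another such enzyme, had -1.85 ± 0.19 (SE) in the DSS and -1.10 ± 0.26 (SE) in the normal colon. Adjusted p for these 3 was at most 0.0299. Across the tissues, Rarb, a retinoic acid receptor and itself a retinoic acid target, averaged 138 ± 19.5 ppm in GFP-positive cells of the normal colon against 18.5 ± 12.6 ppm in GFP-high cells of the small intestine (SD, n = 3 each). It was the 1 of 13 compared retinoid genes that was higher in every colon library than in every small intestine library, and none was lower in every colon library. Among 27 chromatin regulators compared, 1 was higher in every colon library. Of all genes compared, 2.45% were higher and 0.739% lower in every colon library, so 1 gene does not set a list apart. The chromatin regulator was Kdm6a, a demethylase that removes a polycomb mark. It had 39.4 ± 10.4 ppm in GFP-positive colon and 12.3 ± 9.47 ppm in GFP-high small intestine cells (SD, n = 3 each). All 8 TALE cofactors compared and all 28 regional transcription factors compared overlapped between the tissues. Most genes did so, since 3.19% of all genes compared did not overlap.

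Between DSS and normal mice, 3 Hox genes of GFP-positive and 2 of GFP-negative colon cells passed the threshold, all higher in DSS. In GFP-positive cells Hoxa11, Hoxa9 and Hoxb2 were higher in DSS than in normal mice, 3 of 21 tested with 0 lower, against 19.7% of all genes called (10.2% higher and 9.46% lower). In GFP-negative cells Hoxb2 and Hoxb4 were higher, 2 of 22 tested with 0 lower, against 10.3% of all genes (6.03% higher and 4.27% lower). Counted over both directions, these shares lie slightly below those of all genes, too close to set Hox genes apart. Median log2 fold changes of the tested Hox genes were 0.47 in GFP-positive and 0.85 in GFP-negative cells, beside -0.0085 and -0.0157 for all genes tested. DSS and normal libraries also carry separate runs of library numbers, which cannot be told apart from the treatment.

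Hoxa11 had 781, 826 and 679 normalised counts in GFP-positive cells of DSS mice against 301, 195 and 109 in those of normal mice, on the scale shared by both (log2 fold change 2.03 ± 0.31, SE, adjusted p = 0.00155). Every DSS library was above every normal one, and the call held whichever library was left out. In GFP-negative cells Hoxa11 had 162, 266 and 347 counts in DSS against 115, 106 and 159 in normal mice (0.98 ± 0.30, SE, adjusted p = 0.0612). Hoxa9 had 387, 321 and 454 counts in GFP-positive cells of DSS mice against 247, 196 and 282 in normal mice (0.68 ± 0.21, SE, adjusted p = 0.0403). The Hoxa9 call was lost in 5 of the 6 fits with 1 library left out, namely without normal GFP-positive replicate 1 or 2 (adjusted p = 0.0644 and 0.0898) or DSS GFP-positive replicate 1, 2 or 3 (0.118, 0.0601 and 0.16), and also when library totals were made equal (0.0953).

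Hoxb2 had 17, 22 and 18 normalised counts in GFP-positive cells of DSS mice against 2, 3 and 6 in those of normal mice (log2 fold change 2.18 ± 0.50, SE, adjusted p = 0.00966), a call lost without DSS GFP-positive replicate 2 (adjusted p = 0.0542). In GFP-negative cells Hoxb2 had 51, 100 and 111 counts in DSS against 14, 13 and 9 in normal mice (2.71 ± 0.37, SE, adjusted p = 0.00099), a call that no single library decided. Hoxb2 was the 1 Hox gene called in both fractions. Its antisense partner Hoxb3os held a mean of 2.04 ppm in GFP-positive and 3.27 ppm in GFP-negative cells of DSS mice, against 0.091 and 1.12 ppm in those of normal mice, and its part was not tested. Hoxb4 had 94, 70 and 138 counts in GFP-negative cells of DSS mice against 26, 53 and 47 in normal mice (1.25 ± 0.35, SE, adjusted p = 0.0417). That call was lost without normal GFP-negative replicate 1 or 2 (adjusted p = 0.0567 and 0.061), without DSS GFP-negative replicate 1, 2 or 3 (0.0875, 0.0729 and 0.185) and with equal totals (0.0588). Hoxa13 and Hoxd13 had lower means in DSS than in normal mice in both fractions, with adjusted p from 0.146 to 0.71.

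The difference of the DSS responses between GFP-positive and GFP-negative cells was tested on the 12 sorted colon libraries, and 0 of 23 Hox genes passed, against 0.0519% of all genes. At an unadjusted limma p below 0.05, 1 of the 23 did, beside 1081 of all 13488 genes tested. That difference was 1.05 ± 0.47 (log2, SE, adjusted p = 0.582) for Hoxa11, 0.10 ± 0.34 (SE, adjusted p = 0.959) for Hoxa9 and -0.53 ± 0.58 (SE, adjusted p = 0.845) for Hoxb2. Marker sums moved with DSS as well: fibroblast markers summed to 8723 to 10495 ppm in GFP-positive cells of DSS mice against 18793 to 25050 ppm in normal mice, and 8 of the 10 fell. Smooth muscle and pericyte markers rose in 4 of 11 cases in these cells and fell in 0. Of all genes, 10.2% were called higher and 9.46% lower in GFP-positive cells of DSS mice. The part of these shifts in the Hox results was not tested.

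In the small intestine 0 Hox genes passed the test between sorted fractions. GFP-high against GFP-negative cells gave 0 of 20 (0.894% of all genes called), GFP-low against GFP-negative 0 of 21 (0.675%) and GFP-high against GFP-low 0 of 20 (0.384%). At an unadjusted p below 0.05, limma gave 4, 4 and 0 Hox genes. Of all genes tested it gave 1311 of 12412, 2100 of 12445 and 942 of 12226, in the same order. Hoxb5 came nearest, with 32, 62 and 35 normalised counts in GFP-high and 28, 41 and 45 in GFP-low cells, against 187, 104 and 145 in GFP-negative cells. Its log2 fold changes over GFP-negative cells were -1.76 ± 0.43 (SE, adjusted p = 0.0978) for GFP-high and -1.89 ± 0.41 (SE, adjusted p = 0.063) for GFP-low cells, and neither fraction overlapped the GFP-negative one. Hoxb4 had 132, 97 and 122 counts in GFP-high against 208, 136 and 209 in GFP-negative cells, without overlap on this scale (-0.64 ± 0.35, SE, adjusted p = 0.544). As shares of the library total Hoxb4 overlapped, with 58.4, 43.4 and 57.1 ppm in GFP-high against 87.8, 54.9 and 91.0 ppm in GFP-negative cells. Both Hoxb genes had negative values in the colon as well, but the tissues were normalised apart and the difference between them was not tested.

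Hoxc8 was the highest Hox gene in each of the 4 small intestine groups. Hoxc4 came next in GFP-high and GFP-negative cells and Hoxc6 in GFP-low cells. Hoxc8 gave 0.80 ± 0.34 (log2, SE, adjusted p = 0.411) in GFP-high and 0.50 ± 0.28 (SE, adjusted p = 0.378) in GFP-low over GFP-negative cells. Hoxc5, the gene with rows in this tissue only, had 28, 41 and 59 normalised counts in GFP-high and 21, 24 and 48 in GFP-negative cells (0.48 ± 0.57, SE, adjusted p = 0.794). Hoxd8 had 81, 81 and 110 counts in GFP-high against 60, 8 and 29 in GFP-negative cells, without overlap (1.83 ± 0.64, SE, adjusted p = 0.295). GFP-negative replicates differed from each other in several genes: Hoxa10 had 2, 0 and 28 counts and Hoxb8 6, 0 and 40 in replicates 1, 2 and 3, whose estimated reads were 1228000, 1548000 and 3194000.

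Sorted cells were set against unsorted cells, which also hold epithelial and immune cells. In DSS mice GFP-positive cells had 12 higher and 7 lower Hox genes of 27 tested, against 37.1% of all genes called (15.8% higher and 21.3% lower). In normal mice they had 3 higher and 7 lower of 26, against 21.8% (7.72% higher and 14.1% lower). GFP-negative cells had 7 higher and 3 lower of 24 in DSS mice, against 33% of all genes (13.7% higher and 19.3% lower). In normal mice they had 0 higher and 3 lower of 22, against 18.8% (5.81% higher and 13% lower). In the small intestine GFP-high cells had 4 higher and 2 lower of 21, against 17.2% (6.13% higher and 11.1% lower). GFP-low cells had 6 higher and 3 lower of 22, against 22.8% (9.13% higher and 13.7% lower), and GFP-negative cells 2 higher and 0 lower of 21, against 11.5% (4.58% higher and 6.96% lower). The median log2 fold change of all genes was -0.14 for GFP-high, -0.14 for GFP-low and -0.26 for GFP-negative small intestine cells over unsorted cells, and the Hox medians were 0.37, 0.26 and 0.38. With each library left out in turn, 13 of the 19 and 6 of the 10 calls held throughout in DSS GFP-positive and GFP-negative cells, and 3 of the 10 and 0 of the 3 in those of normal mice. In the small intestine 0 of 6 calls in GFP-high, 1 of 9 in GFP-low and 0 of 2 in GFP-negative cells held throughout.

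The genes lower in sorted cells were largely Hoxb genes. Hoxb13, the most posterior Hoxb gene, was listed at 0 in all 3 GFP-positive libraries of the DSS colon and had 0, 2 and 3 normalised counts in GFP-negative cells, against 18, 57 and 19 in unsorted cells (adjusted p = 3.18e-05 and 0.000898). In the normal colon it had 5, 0 and 1 counts in GFP-positive and 0, 0 and 7 in GFP-negative cells, against 6, 316 and 197 in unsorted cells (adjusted p = 0.0299 and 0.0339). The unsorted replicate 1 of the normal colon lay at the level of the sorted cells. The epithelial marker sum was 1038, 1917 and 2846 ppm in replicates 1, 2 and 3 of the unsorted DSS colon, where Hoxb13 held 5.89, 20.02 and 6.66 ppm. It was 575, 4917 and 4552 ppm in those of the unsorted normal colon, in the same order as 1.35, 71.3 and 46.7 ppm of Hoxb13. Other markers also varied between the unsorted normal colon libraries, with sums of 3259 to 11396 ppm for immune and 31.8 to 279 ppm for mesothelial markers. The part of the epithelial share or of other cell types in these calls was not tested.

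No single library decided the DSS calls of Hoxb13. In the normal colon the call in GFP-positive cells was lost without unsorted replicate 2 or 3 (adjusted p = 0.0728 and 0.0863) or GFP-positive replicate 2 or 3 (0.105 and 0.135). The Hoxb13 call in GFP-negative cells was lost without unsorted replicate 2 or 3 (0.0905 and 0.0956), without GFP-negative replicate 1 or 2 (0.0772 and 0.198) and without the filter on low values (0.0527).

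Hoxb9, the next Hoxb gene of the tables, had 0, 1 and 0 normalised counts in GFP-positive and 1, 0 and 2 in GFP-negative cells, against 10, 15 and 25 in unsorted cells of the DSS colon (adjusted p = 0.000268 and 0.00137). In the normal colon it had 1, 1 and 2 counts in GFP-positive and 0, 0 and 1 in GFP-negative cells, against 8, 16 and 22 in unsorted cells (adjusted p = 0.0151 and 0.0112). The Hoxb9 calls of the normal colon were lost without unsorted replicate 2 or 3, with an adjusted p of 0.0536 and 0.0745 in GFP-positive and 0.0507 and 0.0652 in GFP-negative cells, and in GFP-positive cells also without GFP-positive replicate 1 or 2 (0.0538 and 0.0522). In the small intestine Hoxb9 was listed at 0 in the 6 GFP-high and GFP-low libraries, against 55 and 25 counts in unsorted cells (adjusted p = 0.00289 and 0.00138).

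Hoxb8, whose promoter is shown above, had 2, 0 and 1 normalised counts in GFP-high and 0, 1 and 0 in GFP-low cells, against 69 and 38 in unsorted cells of the small intestine (adjusted p = 0.00549 and 0.00157). The GFP-negative replicate 3 of the small intestine stood apart, with 17.4 ppm of Hoxb8 and 10.9 ppm of Hoxb9, near the 27.6 and 16.6 ppm of Hoxb8 and the 22.0 and 11.0 ppm of Hoxb9 in unsorted cells. Its epithelial marker sum was 33.5 ppm, the lowest of the 3 GFP-negative libraries, and its immune marker sum 235 ppm, against 9768 and 11894 ppm in unsorted cells. Without unsorted replicate 2 or 3, the Hoxb8 calls were lost in GFP-high (adjusted p = 0.175 and 0.134) and GFP-low cells (0.0896 and 0.0558), and so were those of Hoxb9 in GFP-high (0.156 and 0.112) and GFP-low cells (0.0882 and 0.0521).

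**Figure D5:**
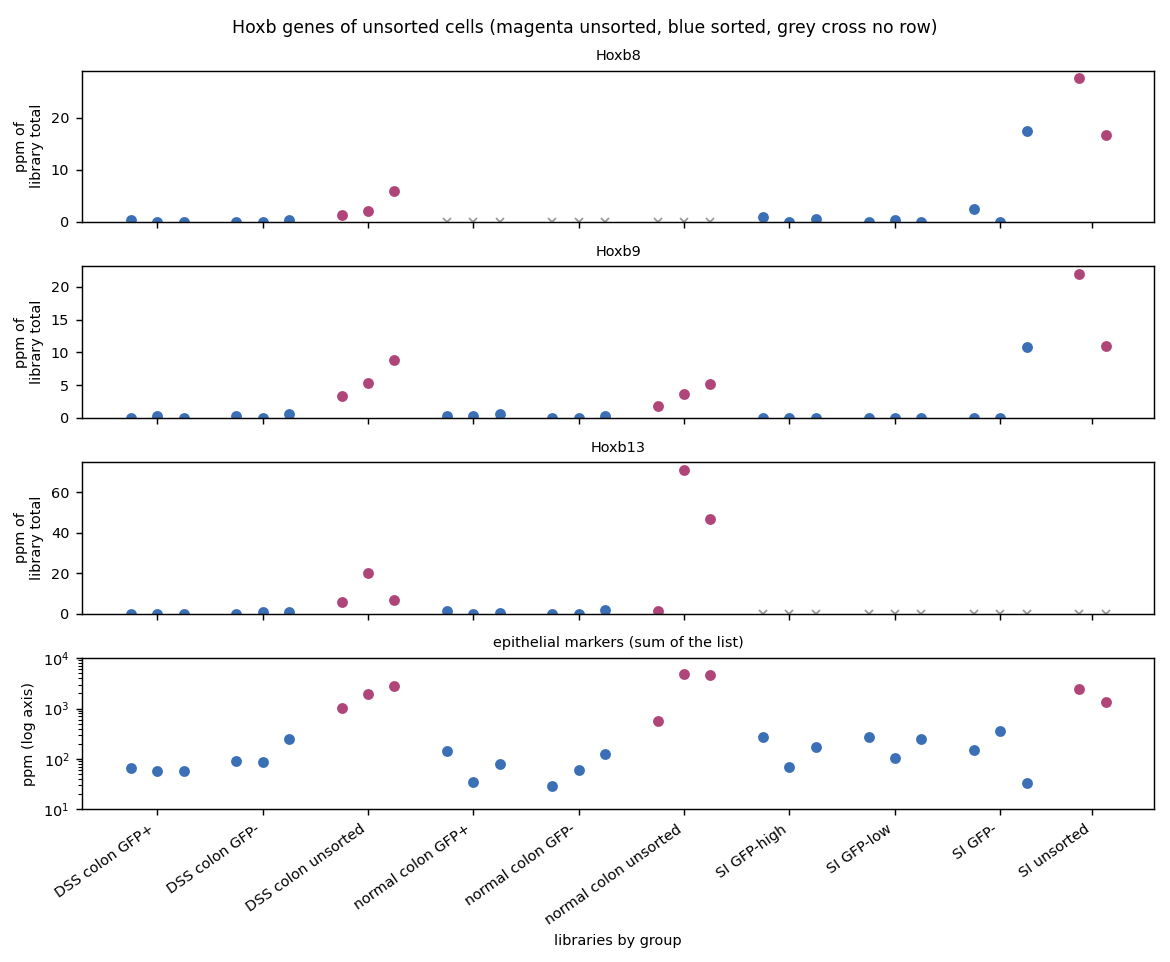
Levels of Hoxb8, Hoxb9 and Hoxb13 and the summed level of 16 epithelial markers in each library by group (y axes in ppm of the library total, the lowest panel on a log axis, magenta points unsorted and blue points sorted libraries, grey crosses groups without a row). The Hoxb genes are near 0 in sorted libraries except GFP-negative replicate 3 of the small intestine (17.4 ppm of Hoxb8), and unsorted normal colon replicate 1 is low in Hoxb13 (1.35 ppm) and in the markers (575 ppm).

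More anterior Hoxb genes were also lower in GFP-positive than in unsorted colon cells. Hoxb6 had 0, 3 and 1 normalised counts in GFP-positive against 21, 18 and 20 in unsorted cells of DSS mice (log2 fold change -3.37 ± 0.57, SE, adjusted p = 0.000482), and 2, 2 and 0 against 8, 29 and 20 in normal mice (-3.10 ± 0.76, SE, adjusted p = 0.0146). Hoxb4 had 13, 11 and 20 counts in GFP-positive against 56, 59 and 74 in unsorted cells of DSS mice, and 13, 7 and 11 against 73, 62 and 38 in normal mice (adjusted p = 0.000222 and 0.00349). Hoxb3 had 8, 5 and 3 counts in GFP-positive against 17, 20 and 20 in unsorted cells of DSS mice, and 4, 3 and 9 against 25, 49 and 25 in normal mice (adjusted p = 0.00779 and 0.00952). For none of these 3 genes did the GFP-positive and unsorted libraries of a condition overlap.

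Hoxb5 had 7, 0 and 9 normalised counts in GFP-positive against 29, 12 and 50 in unsorted cells of DSS mice (log2 fold change -2.65 ± 0.83, SE, adjusted p = 0.0278), and 8, 4 and 7 against 29, 16 and 27 in normal mice (-1.77 ± 0.52, SE, adjusted p = 0.0328). Hoxb7 was called in DSS mice, with 2, 1 and 2 against 9, 4 and 18 counts (adjusted p = 0.0236). In GFP-negative cells Hoxb6 was also lower than in unsorted cells of DSS mice (-1.30 ± 0.40, SE, adjusted p = 0.0264), and that call was lost without unsorted replicate 1, 2 or 3 (adjusted p = 0.0656, 0.0626 and 0.0665) or GFP-negative replicate 1 or 3 (0.0761 and 0.053). The GFP-positive Hoxb6 call of normal mice was lost without unsorted replicate 2 or 3 (0.0665 and 0.0605) or GFP-positive replicate 3 (0.0506). The Hoxb5 call of DSS mice was lost without unsorted replicate 1 or 3 (0.0708 and 0.0884), and that of normal mice in 5 of 6 fits with 1 library left out (0.0579 to 0.106). The Hoxb7 call was lost without unsorted replicate 1 (0.0537) or GFP-positive replicate 2 (0.0755). Without unsorted replicate 3, Hoxb7 fell below the filter on low values and was not tested.

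Hoxa11, Hoxc11, Hoxd10 and Hoxd11 were higher in both sorted fractions of DSS mice than in unsorted cells. None of them passed in normal mice (limma, adjusted p of 0.0542 to 0.506 where tested). Passing in DSS mice only does not show a larger difference there, and the 2 conditions were not tested against each other in this respect. In DSS mice Hoxa11 had 668, 703 and 580 normalised counts in GFP-positive and 138, 225 and 296 in GFP-negative cells, against 57, 91 and 130 in unsorted cells (log2 fold change 2.87 ± 0.28 and 1.25 ± 0.34, SE, adjusted p = 6.91e-06 and 0.0152). Hoxc11 had 30, 20 and 15 counts in GFP-positive and 15, 14 and 11 in GFP-negative cells, against 0, 4 and 2 in unsorted cells of DSS mice (3.15 ± 0.61 and 2.53 ± 0.63, SE, adjusted p = 0.00134 and 0.00811). Hoxd10 had 90, 66 and 149 counts in GFP-positive and 79, 75 and 107 in GFP-negative cells, against 38, 15 and 33 in unsorted cells (1.81 ± 0.38 and 1.65 ± 0.35, SE). On these counts the 3 genes and Hoxd11 lay above the unsorted range in every sorted DSS library. As shares of the library total, Hoxa11 in GFP-negative replicate 1 (43.9 ppm) and Hoxd11 in GFP-positive replicate 2 (12.18 ppm) fell just below unsorted replicate 3 (45.6 ppm of Hoxa11 and 12.28 ppm of Hoxd11). Hoxd11 had 122, 40 and 125 counts in GFP-positive and 91, 61 and 98 in GFP-negative cells, against 21, 19 and 35 in unsorted cells (1.78 ± 0.42 and 1.72 ± 0.32, SE). The Hoxa11 call in GFP-negative cells was lost without GFP-negative replicate 2 or 3 (adjusted p = 0.0583 and 0.0707).

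Hoxa9 had 331, 273 and 388 normalised counts in GFP-positive against 73, 114 and 166 in unsorted cells of DSS mice (log2 fold change 1.55 ± 0.29, SE, adjusted p = 0.000988), and 295, 234 and 335 against 116, 107 and 124 in normal mice (1.30 ± 0.29, SE, adjusted p = 0.00867). Hoxa10 had 121, 92 and 106 counts in GFP-positive and 120, 107 and 134 in GFP-negative cells, against 83, 53 and 61 in unsorted cells of DSS mice (0.70 ± 0.25 and 0.88 ± 0.25, SE, adjusted p = 0.0405 and 0.0176). In normal mice Hoxa10 had 156, 148 and 148 counts in GFP-positive against 56, 65 and 64 in unsorted cells (1.28 ± 0.28, SE, adjusted p = 0.00863). Hoxa9 and Hoxa10 did not overlap with the unsorted libraries in any of these pairs. The Hoxa10 calls of DSS mice were lost with equal totals (0.0735 in GFP-positive and 0.0513 in GFP-negative cells), in GFP-positive cells without any library but unsorted replicate 1 (0.0623 to 0.155) and in GFP-negative cells without unsorted replicate 2 or GFP-negative replicate 3 (0.0669 and 0.0772). The Hoxa9 call of normal mice was lost without GFP-positive replicate 3 (0.05).

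A further 6 genes passed in GFP-positive over unsorted cells of DSS mice. Hoxa2 had 141, 126 and 115 against 83, 49 and 64 normalised counts (log2 fold change 0.98 ± 0.25, SE, adjusted p = 0.00774). Hoxc9 had 22, 24 and 36 against 2, 4 and 9 counts (2.38 ± 0.49, SE, adjusted p = 0.00205), and Hoxd8 had 53, 25 and 51 against 14, 9 and 19 (adjusted p = 0.00779). These 3 calls held whichever library was left out. Hoxc6 had 21, 8 and 34 against 4, 3 and 7 counts (adjusted p = 0.0196), Hoxc10 21, 9 and 20 against 5, 6 and 5 (adjusted p = 0.0285) and Hoxd9 39, 16 and 35 against 9, 8 and 14 (adjusted p = 0.0191). On these counts the GFP-positive libraries lay above the unsorted ones for all 6. As shares of the library total, GFP-positive replicate 2 fell just below unsorted replicate 3 for Hoxc6 (2.44 against 2.46 ppm) and Hoxd9 (4.87 against 4.91 ppm). The call of Hoxc6 was lost without unsorted replicate 2 (0.0686) or GFP-positive replicate 1 or 3 (0.0635 and 0.113), that of Hoxc10 in 5 of 6 fits with 1 library left out (0.0538 to 0.116) and that of Hoxd9 without unsorted replicate 2 (0.0614) or GFP-positive replicate 1 or 3 (0.0914 and 0.0825). In normal mice Hoxd9 had 22, 23 and 45 against 7, 9 and 11 counts (1.58 ± 0.48, SE, adjusted p = 0.0386), a call lost without any 1 of the 6 libraries (0.0552 to 0.187).

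Hoxd13 also differed from unsorted cells. Over unsorted cells it was higher in GFP-negative cells of DSS mice, with 35, 57 and 58 against 6, 27 and 10 normalised counts (log2 fold change 1.95 ± 0.47, SE, adjusted p = 0.00732). It was lower in GFP-positive cells of normal mice, with 14, 13 and 9 against 25, 108 and 76 counts (-2.23 ± 0.54, SE, adjusted p = 0.0133), a call lost without unsorted replicate 2 or 3 (0.0539 and 0.0557) or GFP-positive replicate 3 (0.0514). In GFP-negative cells Hoxb2 was higher in DSS mice, with 44, 85 and 95 against 42, 23 and 22 counts (1.32 ± 0.36, SE, adjusted p = 0.0139), and this was lost without unsorted replicate 2 (0.0571) or GFP-negative replicate 2 or 3 (0.0669 and 0.0699). Hoxa7 was lower in GFP-negative cells of normal mice, with 74, 58 and 65 against 162, 173 and 128 counts (-1.22 ± 0.31, SE, adjusted p = 0.021), and this was lost without unsorted replicate 2 (0.0656) or GFP-negative replicate 2 or 3 (0.104 and 0.0624).

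In the small intestine Hoxc8 and Hoxc4 were higher in all 3 sorted groups than in unsorted cells and Hoxc6 in GFP-high and GFP-low cells, while Hoxc5, Hoxc9 and Hoxc10 were not called. Hoxc8 had 910, 1272 and 1533 normalised counts in GFP-high, 974, 1012 and 959 in GFP-low and 648, 945 and 543 in GFP-negative cells, against 209 and 198 in unsorted cells. Its log2 fold changes were 2.57 ± 0.34, 2.26 ± 0.26 and 1.76 ± 0.33 (SE). Hoxc4 had 161, 174 and 160 counts in GFP-high, 133, 189 and 175 in GFP-low and 253, 149 and 157 in GFP-negative cells, against 64 and 36 in unsorted cells (adjusted p = 0.0133, 0.00989 and 0.0286). Hoxc6 had 111, 149 and 153 counts in GFP-high and 200, 154 and 215 in GFP-low cells, against 48 and 35 in unsorted cells (adjusted p = 0.0145 and 0.00242). All sorted libraries named here lay above both unsorted ones. Hoxd8 was higher in GFP-high cells, with 81, 81 and 110 against 15 and 23 counts (2.21 ± 0.43, SE, adjusted p = 0.00904).

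In GFP-low cells of the small intestine 4 more genes passed. Hoxa10 had 27, 34 and 38 against 8 and 2 normalised counts in unsorted cells (log2 fold change 2.70 ± 0.71, SE, adjusted p = 0.025), and Hoxb2 had 62, 43 and 54 against 12 and 21 (1.66 ± 0.48, SE, adjusted p = 0.038). Hoxa11 had 21, 3 and 12 against 0 and 1 counts (2.89 ± 0.91, SE, adjusted p = 0.049). This call was also lost with a pseudocount of 5 (0.0726) and without the filter on low values (0.067). Without GFP-low replicate 1, Hoxa11 fell below that filter and was not tested. Hoxb5 was lower, with 28, 41 and 45 against 149 and 92 counts (-1.63 ± 0.42, SE, adjusted p = 0.0225). Without unsorted replicate 2 or 3 the Hoxc8 call held for GFP-low cells (adjusted p up to 0.0388). Every other small intestine call over unsorted cells was lost without either unsorted library, with an adjusted p of 0.0521 (Hoxb9 in GFP-low cells) to 0.384 (Hoxa11 in GFP-low cells).

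The other 11 of the 37 genes were not called in any fit. Among these, Hoxa4, Hoxa6, Hoxb1, Hoxd1, Hoxd3 and Hoxd12 held a mean of at most 9.50 ppm in any group. Hoxa3 had 63, 40 and 39 normalised counts in GFP-positive against 21, 22 and 11 in GFP-negative cells of the normal colon, without overlap (adjusted p = 0.0694). Hoxa5 held group means of 10.5 ppm (normal GFP-negative) to 29.2 ppm (normal unsorted) in colon and 26.5 ppm (GFP-high) to 39.7 ppm (GFP-low) in small intestine cells. Hoxa13 and Hoxc5 are described above.

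Noncoding genes of the clusters also differed between samples. Hoxa11os, antisense to Hoxa11, held 85 to 146 ppm as group means in the normal colon groups and had no row in the small intestine tables. Hotairm1, at the anterior end of the Hoxa cluster, held 42.6 ppm in GFP-positive and 22.8 ppm in GFP-negative cells of the DSS colon (log2 fold change 0.82 ± 0.19, SE, adjusted p = 0.00811). Hoxd3os1 had a log2 fold change of 1.12 ± 0.29 (SE, adjusted p = 0.0155) between the same cells, where 17.1% of all genes were called. In the normal colon the fractions overlapped for both genes. Hotairm1 held 25.0 to 57.3 ppm in GFP-positive and 14.9 to 32.6 ppm in GFP-negative cells there. Hoxd3os1 held 7.35 to 17.9 ppm and 2.93 to 9.04 ppm in the same order.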

How the data were processed

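RNA of mouse colon and small intestine cells was profiled by 3′ mRNA sequencing (QuantSeq, Ion Proton), per the labels' protocols. The deposited values, treated as scores, are normalised counts that the authors rounded to whole numbers, in 14 tables of pairwise comparisons. The submitters' processing notes name TopHat2, Bowtie2, DESeq and the build mm10, without versions. The sources used here do not give filters, annotation release or use of strand in counting.

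Values of DSS colon, normal colon and small intestine libraries were each on a scale of their own, and tables of DSS against normal cells on a common one. Each comparison therefore stayed within 1 table, and the difference of DSS responses joined both tables on the common scale. Since the values are not raw counts, log2(value + 1) was tested with limma 3.58.1 (R 4.3.3), with an intensity trend and robust variances, over all genes whose mean reached 10 in 1 group or more, and Benjamini-Hochberg adjustment in each of 15 fits at 0.05. Every adjusted p and SE in the text is from this model, and a log2 fold change on this scale understates the change of low genes. Tissues were compared as shares of library totals, in Python 3.11.15 with pandas 2.3.3 and numpy 2.4.6, without a test. The script was tested on simulated data. The number of samples limits precision, and depth was estimated from the spacing of values where it could be resolved.

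Hox genes and gene lists were chosen with earlier results of these data known. Values per sample are given for Hox genes called in any fit, the 3 most abundant in 4 sorted groups, those not overlapping between tissues, and the Hox13 genes. From each list at most 4 called genes are named, and a few genes are not reported here. Alternatives were a pseudocount of 5, no filter, equal library totals, a replicate block, other denominators and leaving out each library. DESeq2 and edgeR were not run.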

Additional observations from a re-analysis of the deposited data

How the results depend on the processing

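Of 79 Hox calls, 0 changed sign under any alternative and 34 held in every one, including each library left out. With a pseudocount of 5, 1 call was lost, without the filter 2, with equal totals 4 and with the replicate block 4. Same-numbered samples did not deviate together throughout (lowest correlation of deviations -0.33, highest 0.39), so the numbers were not taken as pairs. Between DSS colon groups these correlations were all above 0 (0.0094 to 0.3877), as they were between GFP-high and GFP-low cells (0.0849 to 0.2379). They were also all above 0 between GFP-negative cells of DSS and normal mice (0.0254 to 0.1705). Whether same numbers mark a shared preparation is not given in the labels. The replicate block gave 5 calls in place of 3 for DSS over normal GFP-positive cells and 1 in place of 2 for small intestine GFP-negative over unsorted cells. The 4 calls lost with the block were Hoxb13 in normal GFP-positive over unsorted cells (adjusted p = 0.158), Hoxa11 and Hoxb2 in small intestine GFP-low over unsorted cells (0.072 and 0.0525) and Hoxc4 in small intestine GFP-negative over unsorted cells (0.0868). Equal totals gave 1 in place of 2 for DSS over normal GFP-negative cells, and a pseudocount of 5 gave 1 in place of 0 for small intestine GFP-low over GFP-negative cells. The cause of these shifts was not tested.

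Leaving out 1 library at a time gave these ranges of called Hox genes. GFP-positive over GFP-negative cells gave 10 to 13 in the DSS and 1 to 4 in the normal colon. DSS over normal cells gave 1 to 4 in GFP-positive and 1 to 3 in GFP-negative cells. Over unsorted cells, DSS GFP-positive cells gave 15 to 17 and GFP-negative cells 7 to 12, normal GFP-positive cells 5 to 11 and GFP-negative cells 1 to 6, and small intestine GFP-high cells 0 to 7, GFP-low cells 1 to 8 and GFP-negative cells 0 to 2. Where an arm kept 1 library, it was assumed to vary like the other groups.

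Over the genes with a row in all 14 tables, 9 Hox genes in place of 14 did not overlap between unsorted cells of the tissues, and 4 in place of 7 between all libraries. On those genes the colon minus small intestine difference in mean paralogue number was -0.24 for GFP-positive over GFP-high cells, the opposite sign to 1.46, and 0.12 for GFP-negative and 0.15 for unsorted cells. Over the Hox genes with rows in both tissues, an alternative chosen after seeing the data, it was 0.85, 1.14 and 0.61. Both alternatives drop the posterior genes with rows only in colon tables. The genes with a row in all 14 tables leave out further genes that have rows in both tissues. Among these are Hoxa11, which was higher in colon, and Hoxc4 and Hoxb6, which were lower there. The part of each in the change of sign was not tested. Leaving out 1 library gave 1.30 to 1.65, 2.204 to 2.497 and 1.84 to 2.31.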
